A study of Caenorhabditis elegans with 2 samples.

Results

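HLH-6 belongs to the achaete-scute family of basic helix-loop-helix (bHLH) proteins and acts in the pharyngeal glands. The 10 genes described here are hlh-6 itself and 9 genes known from the pharyngeal glands of Caenorhabditis elegans, namely phat-1 to phat-6, kel-1, nas-12 and dod-6. They are a list of symbols, with no threshold on the binding values, chosen with earlier results of these data known, and all 10 were found among the 19973 protein-coding genes of the Ensembl annotation. Binding of HLH-6 was measured by ChIP-seq, in which DNA bound by a protein is recovered with an antibody and sequenced. The samples were 2 biological replicates of a single group: whole hermaphrodites of strain RW10702, late embryos at 3.5 hours after synchronization by bleaching of eggs. Both carried a stable transgene encoding HLH-6 with GFP and FLAG at its C terminus, and precipitation was done with an antibody against GFP. The antibody field of the labels names hlh-6 instead. No untagged or other group was analysed here, and the labelled control entered only through the authors' region lists.

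Pharyngeal gland cells secrete material into the lumen of the feeding organ, the pharynx. bHLH proteins bind DNA as dimers at the E-box, CANNTG, and HLH-2, the worm's E protein, is the common partner of class II bHLH factors. The phat genes take their name from pharyngeal gland toxin-related proteins, nas-12 encodes a protease of the astacin family, kel-1 a protein with kelch repeats, and dod-6 was named as a gene acting downstream of the FoxO factor DAF-16. The gland cells are few among the cells of an embryo, so in whole embryos binding within them is diluted by chromatin of every other cell, and weak binding and binding in few cells cannot be told apart.

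The authors' lists give each region a signal value, a score whose scale is not given. The replicate 1, replicate 2 and pooled lists each hold 30000 regions and were made as input for IDR, which retains regions whose ranks in the replicates are reproducible. They reach down to a signal value of 12.9 in replicate 1, 13.0 in replicate 2 and 22.5 in the pooled list, so a region in them is not by itself a call. The optimal list, the outcome of IDR, holds 912 regions with signal values from 85.6 to 678. Its intervals are exactly the pooled regions with a signal value of at least 85.6. No list carries read counts, so depth is unknown, and the spread between replicates is shown by giving each replicate's value and rank, rank 1 being the strongest.

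The letters upstream of these genes are shown because bHLH proteins bind at E-boxes. An E-box lay in the stretch from 250 bp upstream to 50 bp downstream of the transcription start site (TSS) in 9 of the 10 genes, all but kel-1, against 69.4% of coding genes. The 10 stretches held 26 E-boxes, a mean of 2.60 per gene against 1.20 over all coding genes. The form CACCTG, or CAGGTG on the other strand, was present in 5 of the 10, phat-2, phat-3, phat-4, phat-5 and dod-6, against 8.48% of coding genes. It is singled out as the most frequent of 10 E-box classes, after the counts had been seen, and the other 9 were present in 0 to 4 of the genes. In 4 of these genes, phat-3, phat-4, phat-5 and dod-6, an E-box on the gene strand was followed after 2 bases by CAAAT, which was so on either strand in 126 of 19973 coding genes (0.631%). That arrangement was chosen after the letters had been seen, so its share carries no test. The 250 bases before the TSS follow for these 4 genes and for hlh-6, in build ce11 (WBcel235), written 5′ to 3′ on the gene strand. Capitals mark E-boxes and any CAAAT that follows an E-box after 2 bases.
phat-3 upstream (chrV:4043682-4043931, plus strand): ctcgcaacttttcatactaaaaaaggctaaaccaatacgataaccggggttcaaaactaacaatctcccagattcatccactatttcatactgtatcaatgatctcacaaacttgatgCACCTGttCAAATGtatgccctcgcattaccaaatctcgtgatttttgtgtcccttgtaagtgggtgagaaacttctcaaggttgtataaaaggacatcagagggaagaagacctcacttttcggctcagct
phat-4 upstream (chrV:4129654-4129903, plus strand): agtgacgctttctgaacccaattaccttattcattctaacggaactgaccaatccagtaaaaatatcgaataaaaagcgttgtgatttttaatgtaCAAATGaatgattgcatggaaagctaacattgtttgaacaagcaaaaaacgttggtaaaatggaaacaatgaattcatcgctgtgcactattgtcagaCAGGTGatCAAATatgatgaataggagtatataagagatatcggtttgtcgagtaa
phat-5 upstream (chrV:4122516-4122765, minus strand): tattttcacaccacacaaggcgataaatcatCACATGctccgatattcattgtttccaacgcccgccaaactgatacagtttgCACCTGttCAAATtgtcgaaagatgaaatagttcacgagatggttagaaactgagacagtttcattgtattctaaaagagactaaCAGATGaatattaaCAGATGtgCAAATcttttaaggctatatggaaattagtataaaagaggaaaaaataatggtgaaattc
dod-6 upstream (chrIII:10197466-10197715, plus strand): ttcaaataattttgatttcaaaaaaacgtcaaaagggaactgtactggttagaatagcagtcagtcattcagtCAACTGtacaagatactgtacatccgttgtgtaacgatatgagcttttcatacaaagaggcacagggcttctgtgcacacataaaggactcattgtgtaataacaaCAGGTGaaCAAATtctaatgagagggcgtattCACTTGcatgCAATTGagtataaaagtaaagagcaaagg
hlh-6 upstream (chrII:9614829-9615078, minus strand): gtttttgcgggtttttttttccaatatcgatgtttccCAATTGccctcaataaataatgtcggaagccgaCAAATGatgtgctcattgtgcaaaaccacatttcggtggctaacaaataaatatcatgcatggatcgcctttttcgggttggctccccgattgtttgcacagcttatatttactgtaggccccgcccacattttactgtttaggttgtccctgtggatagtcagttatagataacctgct

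The CACCTG or CAGGTG form heads the arrangement in phat-3, phat-4, dod-6 and the upstream one of phat-5, while the downstream one of phat-5 begins with CAGATG. The E-boxes that start it lie 132 bp upstream of the TSS in phat-3, 56 bp in phat-4, 167 bp and 68 bp in phat-5, and 71 bp in dod-6. In none of the 3 lists of 30000 did a summit, the position of highest signal in a region, lie on these letters. Counted by the whole region in place of its summit, the downstream site of phat-5 lay inside a pooled region (35.2, rank 13903). The other sites lay inside no region of these lists. The nearest summit of any list was 313 bp away in phat-3 (replicate 2), 416 bp in phat-4 (replicate 1), 227 bp from the downstream site of phat-5 (pooled) and 283 bp in dod-6 (replicate 1). Sought within 50 bp of a summit, the arrangement occurred at 0 of the 24 pooled regions described below, at 49 of all 30000 pooled regions (0.163%) and at 0 of 912 optimal regions. Of the 126 coding genes with it in their promoter letters, 44 (34.9%) had a pooled region from 1000 bp upstream to 200 bp downstream of a TSS, near the 36% of all coding genes, and 5 (3.97%) had an optimal one against 2.5%.

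The letters TGTTTGC, which match the sites preferred by the FoxA factor PHA-4, the organ identity factor of the pharynx, were found within the same 300 bp of hlh-6 and phat-6, against 7.42% of coding genes. TATTTGT, another such match, was found for hlh-6 and nas-12, against 10.96%. Each count rests on 2 genes. No other form of the PHA-4 site was searched, so these counts are not a survey of such sites.

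None of the 10 genes had an optimal region from 5000 bp upstream of its TSS to its end, the gene window, where 7.18% of all coding genes had one. None had an optimal region in the promoter window, from 1000 bp upstream to 200 bp downstream of a TSS, against 2.5% of coding genes. In the longer lists all 10 had a region in the gene window in the pooled list (75.9% of coding genes), 9 in replicate 1 (79.9%) and all 10 in replicate 2 (77.9%). The gene without a replicate 1 region was phat-2. With a pooled region that overlapped regions of both replicates there were 9 genes, against 58.6%. Among the strongest 10000 pooled regions 7 genes had one in their window (45.5%), and among the strongest 5000 there were 5 (28.5%), phat-4, phat-5, phat-6, kel-1 and nas-12. With 10 genes and a single group no test was made, and the shares are set side by side only.

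**Figure D1:**
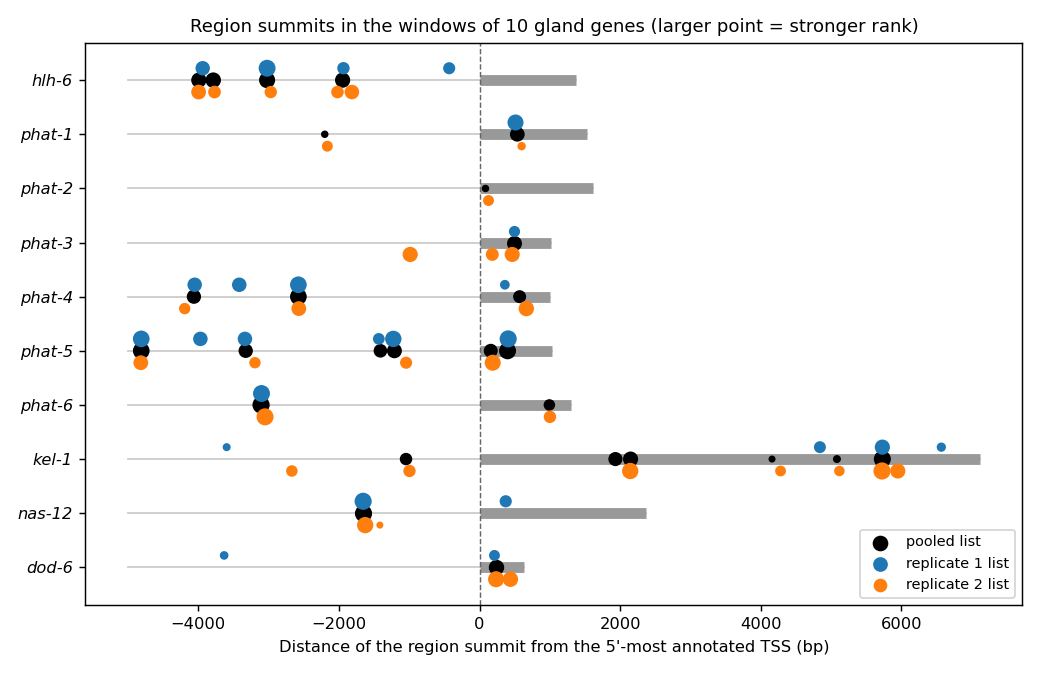
Summits in the pooled list and in both replicate lists for each of the 10 genes, against distance from the TSS in bp along the direction of transcription, from 5000 bp upstream to the gene end. Each point is a region and the bar is the gene. A reader should see that no pooled summit falls in the 1000 bp before the outermost TSS of a gene, though regions of 3 genes overlap that stretch, while gene bodies hold 13.

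The regions were placed unevenly along the windows. In the 1000 bp before the outermost TSS, 0 of the 10 genes had a pooled summit, against 27.9% of coding genes. Counted by an overlap of 1 bp in place of the summit, 3 genes had a region there, phat-2, phat-5 and kel-1, against 36.8% of coding genes, so the contrast rests on where the summits lie. Replicate 1 had a summit there in 1 gene, hlh-6 (28.2%), and replicate 2 in 2 genes, phat-3 and kel-1 (27.1%). Farther upstream, to 5000 bp, 7 genes had a pooled summit (59.3%), at 0.350 summits per kb against 0.287 over all coding genes. A summit in the windows of more than 1 gene counts for each, here and over all coding genes. Upstream summits shared by phat-4 and phat-5 thus count for both, and the upstream summit of phat-1 counts again as the body summit of phat-2. In the gene bodies 8 of 10 had a pooled summit (45.4%), 7 in replicate 1 (47.2%) and 8 in replicate 2 (46.4%). The density in the bodies was 0.685 pooled summits per kb, 13 in 18969 bp, against 0.327 over all coding genes. Without kel-1, the longest gene, it was 0.675, with 8 summits. It was 0.474 against 0.324 in replicate 1 and 0.738 against 0.329 in replicate 2. Over the 16343 coding genes in the range of gene lengths of these 10, the pooled density was 0.308, with a body summit in 44.3%. That range is wide, from 637 bp in dod-6 to 7117 bp in kel-1, and does not match the lengths gene by gene. The median length was 1332 bp for the 10 genes and 2027 bp over all coding genes. The part of gene length in the density was not tested. The summit 156 bp before an internal TSS of kel-1, described below, counts here as one in the gene body. This division of the window was chosen after the positions had been seen.

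**Figure D2:**
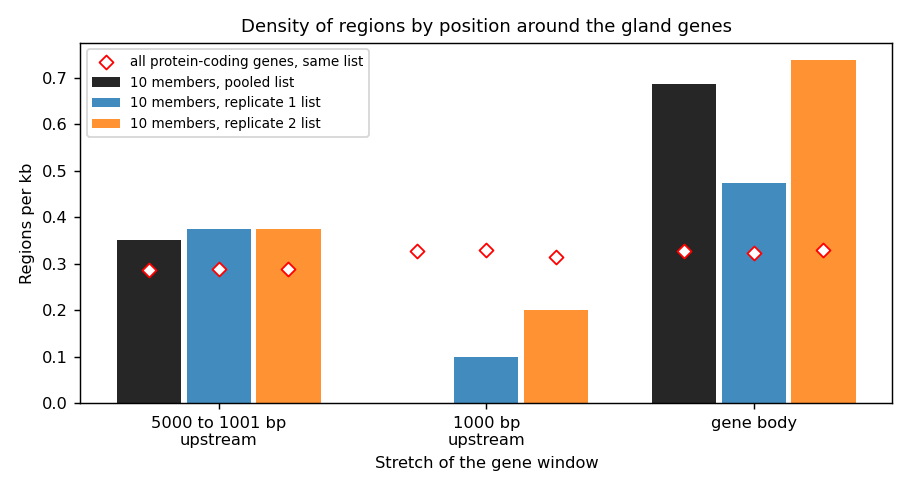
Region summits per kb in 3 stretches of the gene window, for the 10 gland genes and for all protein-coding genes, in each list. Bars start at 0. The gland genes have no pooled summit in the 1000 bp before the outermost TSS, where regions of 3 of them overlap by at least 1 bp, and 0.685 per kb in the gene body against 0.327.

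Of the 13 body summits, 8 lay in the coding sequence of the gene itself, in 7 of the 10 genes, and 2 in the coding sequence of tars-1, the threonyl-tRNA synthetase gene that lies inside kel-1. Their pooled ranks ran from 2963 to 29864 with a median of 13564. The 101 bp around these summits had a median GC content of 49.5% (34.7 to 57.4%). For all 24 distinct pooled regions in the gene windows it was 46.0%, against 44.6% over all pooled regions, and the part of base composition in the placement was not tested. Of the 24 regions, 13 (54.2%) had their summit in coding sequence, against 35.8% of all pooled and 11.95% of optimal regions. Only 2 of the 24 (8.33%) were intergenic, against 27.2% of all pooled regions. The 24 come from windows set on genes, while the shares of all pooled and optimal regions cover the whole genome. The like shares over the windows of all coding genes are not given here, so the part of the windows in these contrasts was not tested. The nearest TSS of a coding gene was that of a gland gene for 13 of the 24 and that of another gene for 11. phat-1 and phat-2, neighbours on the same strand, share 1 of the regions in their windows, and phat-4 and phat-5, which lie on opposite strands with their upstream sides facing each other, share 2.

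In both replicate lists an overlap of at least 1 bp was found for 18 of the 24 regions (75%), against 60.6% of all pooled regions. With summits within 100 bp it was 10 (41.7%) against 34.6%, and with the strongest 10000 regions of each replicate it was 5 (20.8%) against 21.2%, so the difference is not kept there. Some of the 18, at hlh-6 and at phat-5, overlap the same replicate region as their neighbour, so the 18 are not all separate. The other 6 overlapped only a replicate 2 region, 4 of them at kel-1, and 0 overlapped only a replicate 1 region. Found in both were 5 of 5 among ranks 1 to 5000 (98.18% over all pooled regions), 5 of 5 from there to 10000 (87.8%), 7 of 10 from there to 20000 (59.6%) and 1 of 4 below (29.29%). The −log10 q-values of the 24 regions ran from 0.120 to 2.01, all under the lowest of the optimal list, 2.15. They follow the order of the signal values, so this adds nothing to the absence of these regions from the optimal list.

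**Figure D3:**
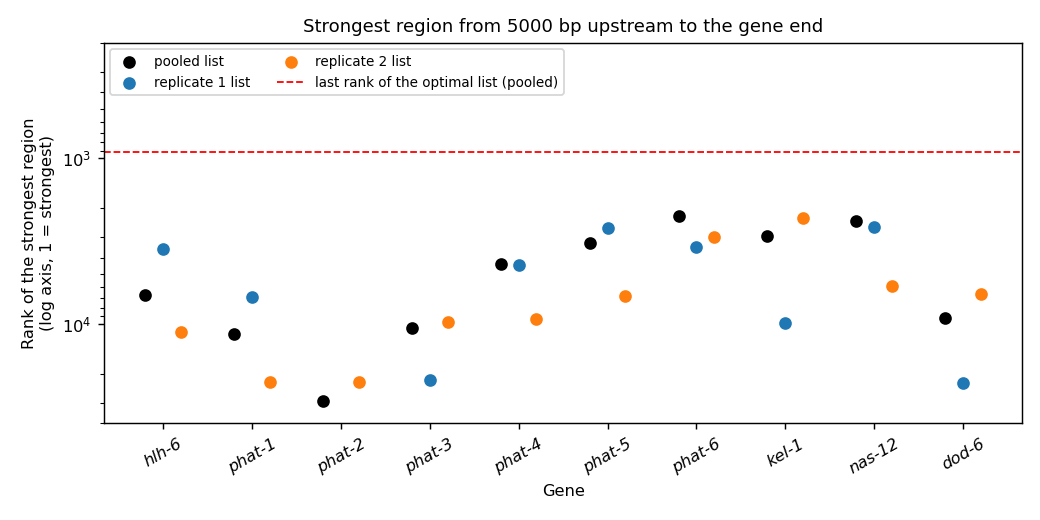
Rank of the strongest region in the gene window of each gene, on a log axis with rank 1 at the top, in the pooled list and both replicate lists. The dashed line is the last pooled rank held by the optimal list. All points of the pooled list lie below the line, phat-2 has no replicate 1 region, and the replicates order the genes differently. The strongest region of a replicate need not be the one that is strongest in the pooled list.

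hlh-6 (WBGene00001952, chromosome II, 9613463 to 9614828, minus strand) had no region within the gene in any list. Of 4 pooled regions upstream the strongest lay 3022 bp before the TSS in the 3′ UTR of dnj-20, a gene of the DnaJ family, with a pooled signal value of 47.3 (rank 6658). There it had 31.2 in replicate 1 (rank 3513) and 17.5 in replicate 2 (rank 18740), so replicate 1 placed it higher. The only summit within 1000 bp upstream of hlh-6 was 432 bp before the TSS in replicate 1, with a signal value of 16.7 (rank 19524) and the E-box form CACCTG within 50 bp. It was absent from replicate 2 and the pooled list.

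phat-1 (WBGene00016732, chromosome I, 5044198 to 5045720) and phat-2 (WBGene00016733, 5046394 to 5048003), both on the minus strand, had the lowest values of the phat genes in the pooled list. The strongest of phat-1 lay 537 bp past its TSS in its coding sequence, with a signal value of 38.2 in the pooled list (rank 11581), 25.5 in replicate 1 (rank 6881) and 13.8 in replicate 2 (rank 27698). The single region of phat-2, 81 bp past the TSS in coding sequence, had 22.95 in the pooled list (rank 29190) and 15.8 in replicate 2 (rank 22445). It was not in the replicate 1 list and stands near the end of the pooled one.

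phat-3 (WBGene00016782, chromosome V, 4043932 to 4044951, plus strand) had a single pooled region, 491 bp past the TSS in its coding sequence. Its signal value was 39.6 in the pooled list (rank 10623), 15.7 in replicate 1 (rank 21919) and 23.0 in replicate 2 (rank 10154). phat-4 (WBGene00020237, chromosome V, 4129904 to 4130909, plus strand) had its strongest region 2577 bp upstream, in the coding sequence of the gene T05B4.13. The values there were 54.7 in the pooled list (rank 4332), 29.2 in replicate 1 (rank 4426) and 22.1 in replicate 2 (rank 11271). In replicate 2 alone, phat-3 had a summit 987 bp upstream in an intron of the neighbouring gene irg-2 (23.4, rank 9724) and another 181 bp past the TSS (18.3, rank 17204). A weaker region in the coding sequence of phat-4, 570 bp past the TSS, had 31.8 in the pooled list (rank 17004), 14.5 in replicate 1 (rank 25183) and 23.8 in replicate 2 (rank 9304). Replicate 1 ranked the upstream phat-4 region higher, and replicate 2 the phat-3 region.

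phat-5 (WBGene00020242, chromosome V, 4121489 to 4122515, minus strand) had its strongest region 398 bp past the TSS in its own coding sequence. The signal value was 59.9 in the pooled list (rank 3246), 34.03 in replicate 1 (rank 2646) and 26.7 in replicate 2 (rank 6780), where the summit lay 211 bp off. The same replicate regions also overlap a second pooled region of phat-5, 159 bp past the TSS in an intron, with 35.2 (rank 13903). phat-6 (WBGene00011683, chromosome X, 15193086 to 15194383, minus strand) had the strongest region of the 10 windows, 67.0 in the pooled list (rank 2226), 31.4 in replicate 1 (rank 3455) and 34.3 in replicate 2 (rank 3003). That region lay 3108 bp upstream in an intron of snt-7, a gene of the synaptotagmin family, whose TSS is the nearest. Its ranks in the replicates were close. Within phat-6 itself, 993 bp past the TSS, an intron held a region of 28.4 in the pooled list (rank 21054) and 17.5 in replicate 2 (rank 18661), with none in replicate 1.

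kel-1 (WBGene00002184, chromosome II, 11688943 to 11696059, plus strand) is the only gene of the 10 with a region in the promoter window among the strongest 5000 pooled regions (9.55% of coding genes). It lay 156 bp upstream of an internal TSS of kel-1, 5729 bp past the outermost TSS, within introns of kel-1 and tars-1. The signal value was 61.6 in the pooled list (rank 2963), 22.4 in replicate 1 (rank 9849) and 36.9 in replicate 2 (rank 2282), higher in replicate 2. In the coding sequence of kel-1, 2148 bp past the outermost TSS, a region had 40.2 in the pooled list (rank 10227) and 28.4 in replicate 2 (rank 5638), and again none in replicate 1. Over the whole pooled list 3 genes had a region in the promoter window, phat-2, phat-5 and kel-1 (36%). There were 2 in replicate 1 (36.8%) and 4 in replicate 2 (35.4%), 2 with a pooled region found in both replicates (22.9%), and 1 among the strongest 10000 (16.4%). Among 4541 genes compared over the 3 lists, those with ranks nearest to kel-1 were tars-1, which has the same region, hmg-6 at a distance of 0.19 in log2 rank and ZC13.1 at 0.20.

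nas-12 (WBGene00003531, chromosome IV, 10224023 to 10226387, plus strand) had a single pooled region, 1659 bp upstream in intergenic sequence, with 65.8 in the pooled list (rank 2378), 34.2 in replicate 1 (rank 2608) and 28.0 in replicate 2 (rank 5947). It lay 175 bp upstream of the TSS of C24F3.2, nearer to that gene than to nas-12. Inside nas-12 the only summit was in replicate 1, 372 bp past the TSS in an intron (16.8, rank 19256). dod-6 (WBGene00011869, chromosome III, 10197716 to 10198352, plus strand) had a single pooled region 232 bp past the TSS in its coding sequence, with 42.1 in the pooled list (rank 9174), 15.4 in replicate 1 (rank 22638) and 27.0 in replicate 2 (rank 6595). It stood much higher in replicate 2, which held another summit in dod-6 at 439 bp (23.8, rank 9314).

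The summits of 5 of these regions show how far they carry the E-box. These are 101 bp centred on the pooled summit in build ce11, plus strand, with E-boxes in capitals.
phat-6 summit (chrX:15197441-15197541, plus strand): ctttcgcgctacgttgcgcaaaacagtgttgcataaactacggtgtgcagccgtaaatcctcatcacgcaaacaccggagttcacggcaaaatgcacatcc
nas-12 summit (chrIV:10222314-10222414, plus strand): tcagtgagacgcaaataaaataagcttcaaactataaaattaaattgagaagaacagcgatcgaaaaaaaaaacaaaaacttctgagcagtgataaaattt
kel-1 summit (chrII:11694622-11694722, plus strand): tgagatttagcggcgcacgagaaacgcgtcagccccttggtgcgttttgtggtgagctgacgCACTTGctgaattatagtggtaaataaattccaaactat
phat-5 summit (chrV:4122067-4122167, plus strand): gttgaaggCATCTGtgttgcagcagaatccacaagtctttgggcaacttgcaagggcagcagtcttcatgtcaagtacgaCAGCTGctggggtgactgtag
dod-6 summit (chrIII:10197898-10197998, plus strand): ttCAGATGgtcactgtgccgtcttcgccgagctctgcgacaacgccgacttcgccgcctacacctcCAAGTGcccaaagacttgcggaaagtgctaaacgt

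The strongest region of all, at phat-6, and that of nas-12 held no E-box in these letters. Those of phat-5 and dod-6 held 2 each and that of kel-1 held 1. Over all 24 regions an E-box lay within 50 bp of the summit in 9 (37.5%, exact 95% interval 18.8 to 59.4%, which covers the counting of regions only), against 36.4% of all pooled regions. In replicate 1 it was 12 of 22 regions (54.5%, exact interval 32.2 to 75.6%) against 35.8%. In replicate 2 it was 12 of 28 (42.9%, exact interval 24.5 to 62.8%) against 37.1%. Both intervals hold the share over all regions of their list. All 912 optimal regions together had one in 33.6%.

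By the pooled signal value of the strongest region in the window, the order was phat-6, nas-12, kel-1, phat-5, phat-4, hlh-6, dod-6, phat-3, phat-1 and phat-2. The regions that give phat-6, nas-12, phat-4 and hlh-6 their places lay nearest to the TSS of another gene. The replicates did not keep the pooled order, and the changes reached beyond neighbours. kel-1 was in place 7 of 9 in replicate 1 and place 1 of 10 in replicate 2, dod-6 in place 9 and place 4, and hlh-6 in place 4 and place 8. phat-6 and nas-12 were among the first 3 in both. For hlh-6 the strongest regions of the replicates were different ones.

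Among the 15163 coding genes with a pooled region in the window, the share with a lower value was 80.1% for phat-6, 78.9% for nas-12, 74.8% for kel-1, 72.7% for phat-5 and 66.2% for phat-4. It was 53.8% for hlh-6, 43.0% for dod-6, 37.9% for phat-3, 34.8% for phat-1 and 0.692% for phat-2. In the single replicates the same share moved by over 1.5 times for several genes. It was 10.1% in replicate 1 and 55.2% in replicate 2 for dod-6, 42.1% and 80% for kel-1, and 11.3% and 41.6% for phat-3, higher in replicate 2 for these 3. It was 54.4% and 9.97% for phat-1 and 72.4% and 36.3% for hlh-6, and 66.9% and 43.1% for phat-4, higher in replicate 1. For phat-6 it was 72.7% and 75.1%. For hlh-6, phat-1, phat-3 and phat-4 the replicates had their strongest regions at different places. The shift of these genes is thus not that of a single region. The median of the strongest values was 51.0 over the 10 genes and 45.3 over the coding genes with a region in the pooled list. In replicate 1 it was 29.2 over the 9 genes with a region, without phat-2, against 24.4. In replicate 2 it was 25.3 against 25.6, so the direction was not kept.

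**Figure D4:**
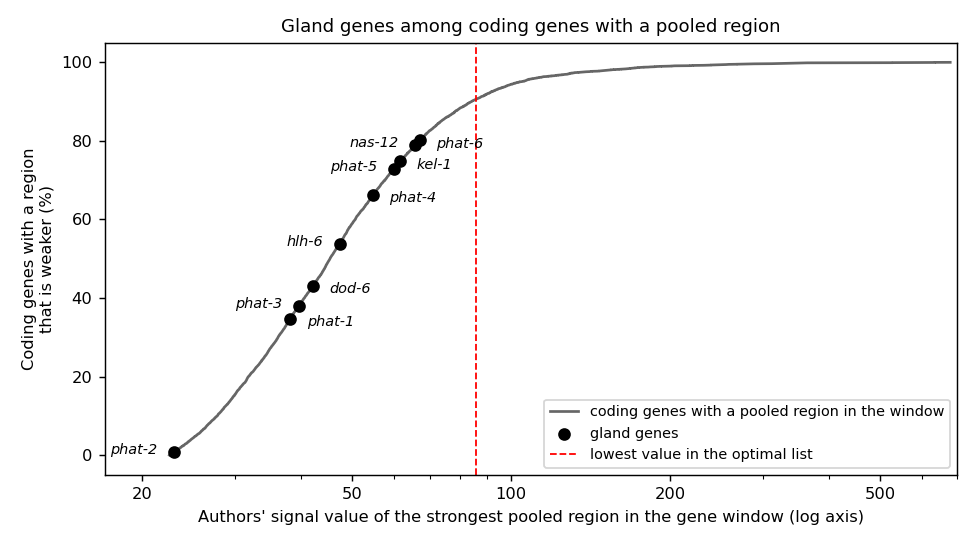
Share of the coding genes with a pooled region in the window whose strongest region is weaker (percent), against the authors' signal value of the strongest pooled region, on a log axis. The gland genes are points on the curve and run from phat-2 at 0.692% to phat-6 at 80.1%, all left of the dashed line at 85.6, the lowest value of the optimal list. For phat-6, nas-12, phat-4 and hlh-6 the region lies nearest to the TSS of another gene.

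The surroundings of hlh-6 were rich in regions. Within 20 kb of the gene there were 23 pooled regions, 1.86-fold of the 12.4 that the genome's mean density gives, while 94.7% of coding genes had as many or fewer for the same measure. In replicate 1 there were 22, 1.78-fold (95.0%), and in replicate 2 there were 25, 2.02-fold (97.6%). Of the 23, 15 were found in both replicates, 1 only in replicate 1, 5 only in replicate 2 and 2 in neither. For the other 9 genes the pooled density ran from 0.489-fold at phat-3 to 1.63-fold at phat-4. The strongest of the 23 lay 6490 bp downstream of the hlh-6 TSS in the coding sequence of pap-2, with 82.5 in the pooled list (rank 1037), 41.6 in replicate 1 (rank 1264) and 37.4 in replicate 2 (rank 2180).

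From 30 kb before to 50 kb past the hlh-6 TSS, limits chosen after the counts had been seen, the pooled list held 44 regions, 5.50 per 10 kb (3 to 8), against 1.08 per 10 kb (0 to 3) in the rest of the 100 kb each side and 2.99 over the genome. It was 5.00 against 1.58 in replicate 1 and 5.12 against 1.33 in replicate 2. A single bin of 8 is not rare in the genome, since 4.2 to 5.2% of 10024 bins reach it, depending on the list. How often a run of bins of this length holds as many regions is not given here. The strain carries a tagged copy of hlh-6 as a transgene, the length of which the labels do not give, and DNA of the copy and of the locus cannot be told apart in these lists. Its part in the density was not tested.

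**Figure D5:**
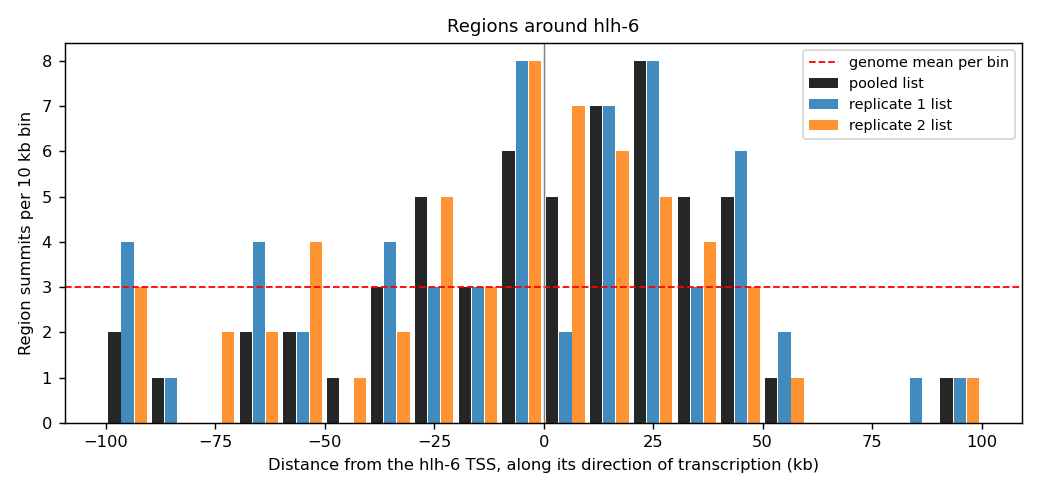
Region summits per 10 kb bin against distance in kb from the hlh-6 TSS, along its direction of transcription, in each list. The dashed line is the genome mean of 2.99 per bin. In the pooled list, bins from 30 kb before to 50 kb past the TSS hold 3 to 8 summits and those beyond hold 0 to 3.

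The optimal region nearest to each gene lay at a distance, measured from the gene's nearer end to the summit, of 22136 bp for hlh-6 to 137025 bp for phat-3, with a median of 55264 bp against 44218 bp over all coding genes. That of hlh-6 lay in the 5′ UTR of tag-124, with a signal value of 131. phat-3, phat-4 and phat-5 share the nearest one, in an intron of Y45G5AM.9 (106), and phat-1 and phat-2 share another, upstream of kin-32 (109), a focal adhesion kinase gene. For phat-6 it lay 103128 bp away in an intron of the tyramine receptor gene ser-2 (134). A short RNA gene (tRNA, snoRNA or snRNA) lay within 200 bp of that summit, and of no other nearest optimal one. The region nearest to kel-1 lay 50868 bp away in an intron of the G protein subunit gene gpb-1 (123). That of nas-12 lay 104730 bp away in the 5′ UTR of the calcium and calmodulin dependent kinase gene unc-43 (89.1). That of dod-6 lay 72650 bp away, 255 bp upstream of cnk-1 (101). The 10 genes thus had 7 distinct nearest optimal regions.

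A second list held 10 genes that act in pharynx or gland development or as partners of such factors: pha-4, hlh-2, the homeobox genes ceh-22 and ceh-34, the coactivator gene eya-1, the T-box gene tbx-2, the DNA-binding factor gene peb-1, and lin-12, glp-1 and lag-1 of the Notch pathway. This list too was chosen with earlier results of these data known. In the pooled list 8 of its 10 genes had a region in the promoter window, all but hlh-2 and lag-1. That compares with 3 of the 10 gland genes and 36% of coding genes. There were 8 in replicate 1 (36.8%) and 7 in replicate 2 (35.4%), where lin-12 also had none. With a pooled region found in both replicates there were 6 (22.9%), against 2 gland genes. In the optimal list there were 2, ceh-34 with a signal value of 92.3 and tbx-2 with 102. None of the gland genes and 2.5% of coding genes had one. For ceh-34 the values were 40.9 in replicate 1 (rank 1352) and 52.2 in replicate 2 (rank 605), and for tbx-2 they were 48.4 (rank 732) and 51.3 (rank 648). Just under the optimal list stood lag-1, with 85.5 (rank 920) in its gene window, and ceh-22, with 81.9 (rank 1077) in its promoter window. In replicate 1 and replicate 2 these had 38.3 (rank 1740) and 51.0 (rank 663) for lag-1, and 31.5 (rank 3407) and 43.7 (rank 1214) for ceh-22. The strongest promoter region of pha-4 had 53.1 in the pooled list (rank 4752), 20.1 in replicate 1 (rank 13024) and 37.3 in replicate 2 (rank 2201). That of peb-1 had 75.1 (rank 1466), 33.2 (rank 2888) and 41.6 (rank 1469). The windows of these genes are longer than those of most gland genes, they have up to 5 TSS each, and their part in the counts was not tested.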

How the data were processed

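Per the README texts beside the lists, the authors made each replicate's list from its alignments and a control, the pooled list from both replicates and a control, and the optimal list from these by IDR. For the aligner, the peak caller, filters and the IDR cut-off: not given in the sources used here. Column 7 is a score as deposited by the authors, a signal value of unknown scale. The authors' −log10 q-values and summit offsets were used as deposited. Only the 4 ce11 lists were analysed. No list holds counts, so depth is unknown. No column was left out (0).

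Genes and TSS came from Ensembl release 115 and bases from NCBI's WBcel235 (the assembly of ce11), with coordinates counted from 1. The gene window ran from 5000 bp upstream of the outermost TSS to the gene end, and the promoter window covered 1000 bp before and 200 bp after each annotated TSS. A count was set beside the share of 19973 protein-coding genes. Replicates shared a region at an overlap of 1 bp. E-boxes were sought on both strands. CACCTG and CAGGTG are one class, and matches of different motifs may overlap. Region counting was checked on simulated regions. Python 3.11.15, pandas 2.3.3, numpy 2.4.6, scipy 1.17.1 and matplotlib 3.10.9 were used. All 10 members were named, with 3 genes of ranks most like the member with the strongest promoter region. The regulator list was likewise chosen with earlier results of these data known, as were the members. No test was made, since the 2 replicates form a single group.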

Additional observations from a re-analysis of the deposited data

How the results depend on the processing

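Alternatives for windows, overlap, strength and replicates gave 27 values within tolerance and 13 that moved. The tolerance was 1.5 times the reported value, or for the E-box share its exact interval, so that 10 genes becoming 7, 13 body regions becoming 9 and an E-box share of 25 to 54.5% count as within it. The number of genes with a region, 10, became 3 in the promoter window and 5 among the strongest 5000 pooled regions. Genes with a promoter region, 3, became 1 among the strongest 10000 and 1 among the strongest 5000. Regions in the windows became 10 among the strongest 10000. Regions shared by the replicates, 18, became 10 when summits had to lie within 100 bp (41.7% against 34.6% of all pooled regions) and 5 among the strongest 10000 of each (20.8% against 21.2%). The median distance to the nearest optimal region, 55264 bp, became 33900.5 bp with the strongest pooled regions taken at double the optimal list's length. The 13 regions in gene bodies became 8 without kel-1 and 3 among the strongest 10000. Genes with a region in the 1000 bp before the outermost TSS, 0, became 3 by an overlap of 1 bp in place of the summit (36.8% of coding genes). In the list of a single replicate they were 1 to 2. The cause of these moves was not tested. The lists cut by strength hold fewer regions by construction. The alternative with the canonical transcript's TSS was not run, since the annotation used here marks none. No paired analysis was possible because there is a single group. Without read counts the depth is unknown, and weak regions in a mixed whole-embryo sample were not separable from background.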
